A study of Mus musculus with 14 samples.

Results

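The genes described here govern how a cell makes, senses, modifies and exports cholesterol. They are Ch25h, Abca1, Abcg1, Nr1h3, Hmgcs1, Sqle and Insig1, and every probe carrying one of these symbols was taken. Of the 7 genes, 6 had a probe, with 12 of the 45281 probes on the array between them. Values for Hmgcs1 were not used here. Sqle had 3 probes, Insig1 had 4, Nr1h3 had 2 and the others had 1 each. Where a gene had more than 1 probe, it was followed through its brightest probe, and the others are given beside it.

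Cells build cholesterol from acetyl-CoA through mevalonate, squalene and lanosterol. Sqle encodes squalene epoxidase, which oxidizes squalene, and Hmgcs1 encodes an early enzyme upstream of mevalonate. The transcription factor SREBP2 turns these genes on when sterols are scarce. Insig1, itself a target of SREBP, encodes an anchor that holds the SREBP complex in the endoplasmic reticulum when sterols are plentiful. Ch25h encodes the hydroxylase that adds a hydroxyl group to the side chain of cholesterol, and its product, an oxysterol, keeps SREBP inactive and is a ligand of the liver X receptors (LXR). Nr1h3 encodes LXRα, and Abca1 and Abcg1 encode LXR-induced transporters that move cholesterol out of macrophages. In macrophages Ch25h is known as a gene induced by interferon and by Toll-like receptor ligands.

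The 14 arrays measured RNA of GFP+CD11b+ myeloid cells. The cells were sorted from intracranial breast tumors (BrM), spleen and bone marrow of C57Bl/6J mice. Tumor-bearing mice had been lethally irradiated and given hematopoietic stem cells that carry GFP, and the naïve mice are not described further in the sources used here. All mice were 14 weeks old. Tumors of the murine breast cancer lines PyMT or EO771 had grown for 2 weeks. There were 4 PyMT BrM, 3 PyMT spleen, 1 PyMT bone marrow, 2 EO771 BrM, 2 naïve spleen and 2 naïve bone marrow arrays. Viable control cells could not be isolated from EO771 mice, so naïve mice stood in for them. In that model the effect of a tumor elsewhere in the animal and of handling cannot be told apart from the difference between tissues. The 2 naïve bone marrow arrays and naïve spleen 1 carry sample codes with a common number and may come from 1 mouse. The main comparisons treat them as separate samples. The code of EO771 BrM 2 holds 2 numbers, so it may be a pool. Since sorted populations were measured in bulk, fewer cells of a type and less RNA per cell cannot be told apart.

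Values are on the log2 scale as the authors normalized them, and the median of all values was 4.06. The arrays had nearly identical distributions, with sorted values that differed by at most 0.00192. Of the 6 genes for the sorted markers and leukocyte identity, limma called none in the pooled comparison of BrM with the other tissues (0 at an unadjusted p under 0.05, against 2 for BrM against spleen and 1 for BrM against bone marrow). Neutrophil markers were lower in BrM than in spleen and bone marrow for 13 of 15 genes, and macrophage markers were higher for 8 of 15 genes, as set out with their levels after the results for the members. PyMT spleen 2 stood apart from the other spleens. Its mean over the macrophage markers was 8.60 and over the B cell markers 5.49, values near those of the bone marrow arrays.

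Ch25h was high in every BrM array and near the median of the array in every other array. The 4 PyMT BrM arrays read 9.14, 8.58, 9.29 and 8.28, and the 2 EO771 BrM arrays read 9.20 and 9.59. The PyMT spleens read 4.14, 3.91 and 3.53, the naïve spleens 3.65 and 4.22, the PyMT bone marrow 3.78 and the naïve bone marrows 3.55 and 4.28. The lowest BrM array was therefore about 4 log2 units above the highest array of spleen or bone marrow, and the groups did not overlap. Among all 19057 genes, 4.25% lay higher in BrM without overlap and 3.73% lay lower.

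**Figure D1:**
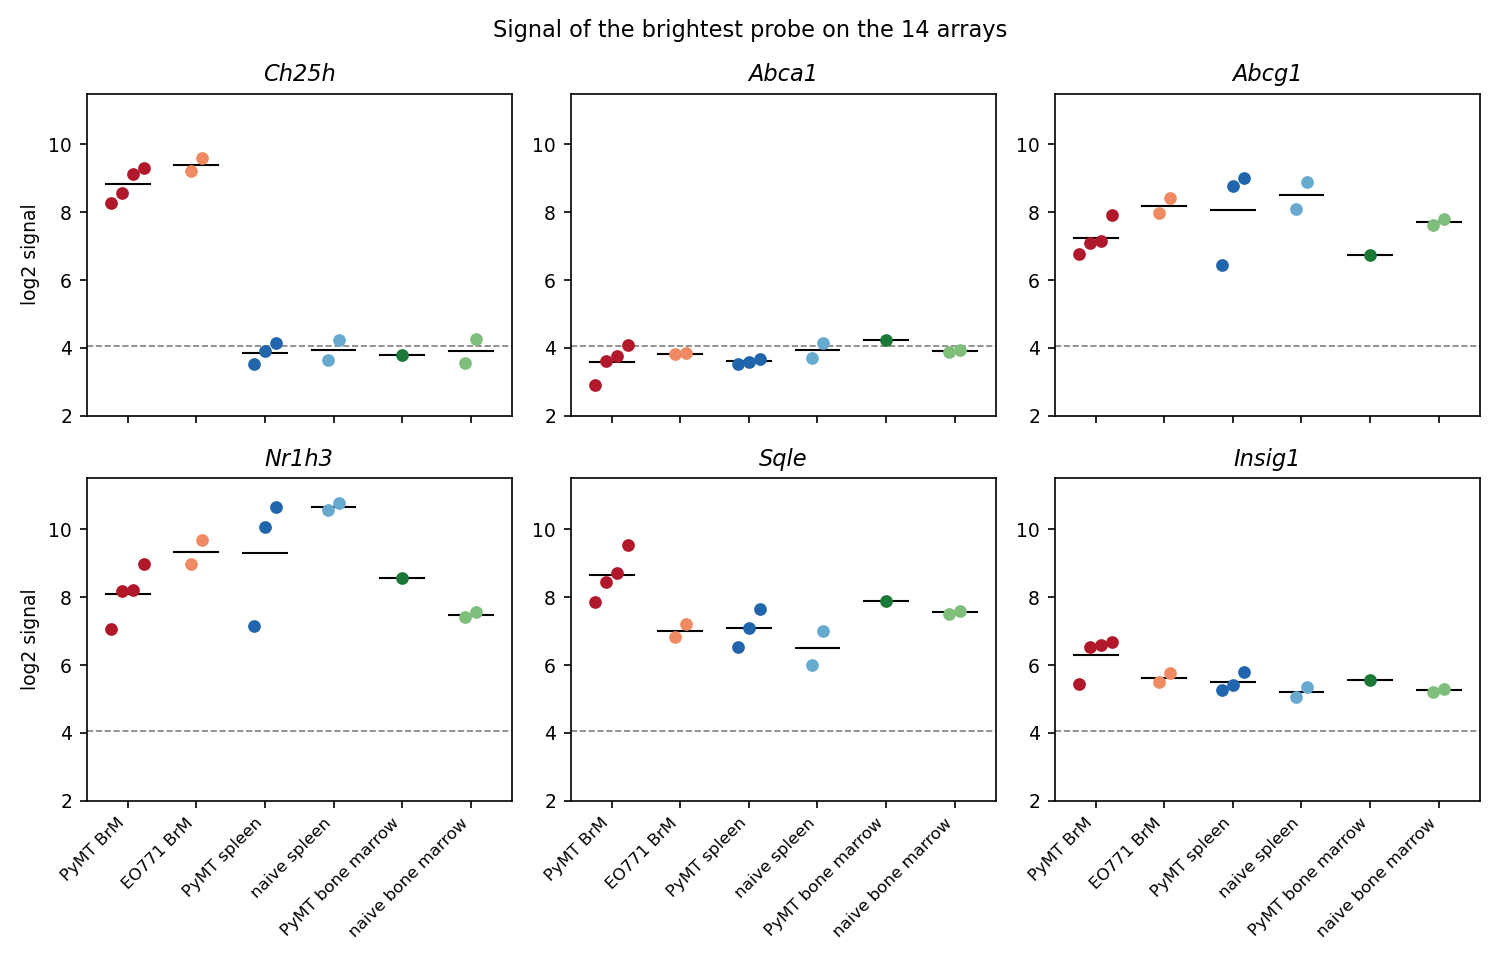
Log2 expression of the brightest probe of each of the 6 measured members on all 14 arrays, by condition (each point is 1 array, the line is the mean of a condition and the dashed line is the median of all values, 4.06). The BrM arrays of Ch25h sit between 8.28 and 9.59 and all others between 3.53 and 4.28, while the groups of the other 5 genes overlap.

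Comparisons across genes were made with limma on the log2 values, with p adjusted over all 45281 probes, and a gene was called at an adjusted p under 0.01. In PyMT, Ch25h was 4.98 log2 units higher in BrM than in the spleen and bone marrow of PyMT mice (31.6-fold, SE 0.27, adjusted p = 8.02e-08). The 95% interval ran from 4.41 to 5.55. In EO771, with naïve controls, the difference was 5.47 (44.3-fold, SE 0.33, adjusted p = 6.51e-07, interval 4.77 to 6.17). The difference between the models was -0.49 (SE 0.42, interval -1.40 to 0.42, adjusted p = 0.802), so effects of the same size and effects that differ by up to 1.40 log2 units both lie within its interval. Directly between tumors, PyMT BrM minus EO771 BrM was -0.57 (SE 0.35, interval -1.33 to 0.19, adjusted p = 0.402). Because controls near the array median hold little signal over background, the fold changes depend on that background.

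The rise held against each tissue. BrM was 5.21 higher than spleen (SE 0.25, adjusted p = 2.95e-07) and 5.26 higher than bone marrow (SE 0.30, adjusted p = 1.80e-06). Spleen and bone marrow themselves lay within the same range of values. In 3 PyMT mice the tumor and the spleen came from 1 animal, which removes differences between mice. There Ch25h was higher in the tumor by 5.15, 4.67 and 4.75, and in the mouse that also gave bone marrow it was 5.51 higher than in marrow. The 3 differences to spleen all lie within 0.5 log2 units of each other.

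Ch25h is a gene on chr19:34473783-34475148 of GRCm38.p6, on the minus strand. Ch25h was chosen as the member whose level changed most and Insig1 as a measured member known as an SREBP target. The 250 bases before the start of Ch25h, chr19:34475149-34475398, are shown with those of Insig1. Both are from RefSeq on GRCm38.p6 and run 5′ to 3′ on the strand of the gene. Capitals in the Insig1 sequence, from chr5:28071162-28071411 on the plus strand, mark the letters found by a search of both strands for TCACNCCAC (a sterol regulatory element), CCAAT (the box bound by NF-Y), AGGTCA (a nuclear receptor half-site) and CACGTG (an E-box).
Ch25h: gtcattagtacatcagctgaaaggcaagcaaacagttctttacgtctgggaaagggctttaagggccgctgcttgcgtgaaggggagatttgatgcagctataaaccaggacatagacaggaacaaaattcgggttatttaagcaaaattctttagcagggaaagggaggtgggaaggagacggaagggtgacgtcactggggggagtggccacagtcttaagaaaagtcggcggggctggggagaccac
Insig1: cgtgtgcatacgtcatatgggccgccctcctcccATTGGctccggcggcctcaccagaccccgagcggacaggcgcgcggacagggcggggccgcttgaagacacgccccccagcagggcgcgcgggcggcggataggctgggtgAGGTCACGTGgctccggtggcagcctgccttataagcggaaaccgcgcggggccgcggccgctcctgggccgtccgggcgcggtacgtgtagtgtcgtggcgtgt

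In the Ch25h window none of the 4 motifs was found. In the Insig1 window CCAAT was found on the opposite strand, 216 to 212 bases upstream of the start, and AGGTCA at 105 to 100 bases shared its last letters with CACGTG at 101 to 96 bases. TCACNCCAC was not found in the Insig1 window. The letters of these motifs occur widely. Over 32851 mouse promoters of 250 bases, TCACNCCAC was present in 1.05%, CCAAT in 33.9%, AGGTCA in 14.0% and CACGTG in 6.02%. Counted by gene, over 27025 genes, these shares were 1.22%, 37.5%, 15.8% and 6.86%. Of the 15 cholesterol synthesis genes with a promoter sequence, 14 held CCAAT, 3 held CACGTG, 2 held AGGTCA and 1, Hmgcs1, held TCACNCCAC. Sqle had no promoter sequence here and is not among these 15. The Abca1 window held CACGTG once, and neither Nr1h3 window held any of them. These matches describe letters and not binding.

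The pattern of Ch25h over the 14 arrays was shared with other genes that separate BrM from the rest. Among 14636 genes ranked by Pearson correlation with it, the 5 most alike were Naa20 (r = 0.986), Ccl12 (r = 0.986), Cd276 (r = 0.985), Dab2 (r = 0.984) and Slamf9 (r = 0.982). Ccl12 encodes a chemokine and Dab2 an endocytic adaptor. All 5 were higher in BrM, by 1.78 for Naa20 to 7.32 for Ccl12. The arrays share their tissue of origin, so genes that differ between tumor and other tissue correlate by that difference.

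The efflux genes and their receptor did not show the pattern of Ch25h. Abca1 was dim in every group, with its mean at the 42.1 percentile of all probes. Its PyMT BrM arrays read 4.07, 2.92, 3.62 and 3.77, EO771 BrM read 3.86 and 3.80, and the other 8 arrays lay between 3.53 and 4.22. No group stood out. The difference was -0.16 in PyMT (SE 0.25, adjusted p = 0.749) and -0.08 in EO771 (SE 0.31), and leaving out 1 array at a time moved the PyMT value from -0.32 to 0.06. A probe this near the median of the array gives little room to see a fall.

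Abcg1 was brighter. PyMT BrM read 7.08, 7.92, 6.78 and 7.16 and EO771 BrM read 7.97 and 8.41. The PyMT spleens read 9.0, 6.44 and 8.76, the naïve spleens 8.11 and 8.90, the PyMT bone marrow 6.75 and the naïve bone marrows 7.79 and 7.62. Spleens other than PyMT spleen 2 were the highest arrays apart from EO771 BrM 2, which passed naïve spleen 1, and the PyMT BrM arrays overlapped bone marrow. The difference was -0.51 in PyMT (SE 0.53, adjusted p = 0.616) and 0.08 in EO771 (SE 0.64). Without PyMT spleen 2 the PyMT difference was -0.94 (adjusted p = 0.277) and the pooled difference -0.58 (adjusted p = 0.413), neither of them called. Within mice, BrM minus spleen was -2.22 and -1.61 in the mice of PyMT spleen 1 and PyMT spleen 3, and 1.48 in the mouse of PyMT spleen 2.

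Nr1h3 varied most among spleens. PyMT BrM read 7.06, 8.19, 8.97 and 8.21, and EO771 BrM read 8.97 and 9.67. The PyMT spleens read 10.66, 7.14 and 10.08 and the naïve spleens 10.57 and 10.76, against 8.58 in PyMT bone marrow and 7.42 and 7.55 in the naïve bone marrows. With PyMT spleen 2 apart, all spleens were above all BrM arrays and the bone marrows overlapped BrM. BrM minus spleen was -1.26 (SE 0.57, adjusted p = 0.196), and without PyMT spleen 2 it was -1.80 (adjusted p = 0.00367). Spleen minus bone marrow was 1.95 (SE 0.69, adjusted p = 0.191), and without PyMT spleen 2 it was 2.49 (adjusted p = 0.0026). Leaving that array out raised the calls over all probes as well. Between spleen and bone marrow they went from 2 higher and 0 lower to 1554 higher and 1292 lower. Between BrM and spleen they went from 1663 higher and 1394 lower to 2534 and 2222. The second Nr1h3 probe was dimmer, from 4.25 to 6.45 over all arrays, and its difference between BrM and the rest was 0.05 (SE 0.37). It gave -0.25 for BrM minus spleen (SE 0.33, adjusted p = 0.723) and 1.18 for spleen minus bone marrow (SE 0.40, adjusted p = 0.175), with EO771 BrM at 5.73 and 6.03 and naïve spleen at 6.07 and 5.69. Abcg1 and Nr1h3 varied together over the 14 arrays (r = 0.76), a description over arrays that share tissues and, in part, mice.

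Sqle was highest in PyMT BrM. Its brightest probe read 8.70, 9.53, 8.46 and 7.87 there and 7.19 and 6.84 in EO771 BrM. The PyMT spleens read 7.09, 7.65 and 6.54, the PyMT bone marrow 7.88, the naïve spleens 7.01 and 6.01 and the naïve bone marrows 7.59 and 7.51. PyMT bone marrow reached the lowest PyMT BrM array, and EO771 BrM lay among its controls. The difference was 1.35 in PyMT (SE 0.42, adjusted p = 0.053) and -0.01 in EO771 (SE 0.51, interval -1.10 to 1.08). Split by tissue over both models, BrM was 1.03 above spleen (SE 0.32, adjusted p = 0.058). Against bone marrow it was 0.11 higher (SE 0.39, adjusted p = 0.912), so the Sqle difference was mainly one to spleen. The difference between the models was 1.36 (SE 0.66, interval -0.05 to 2.77, adjusted p = 0.578). Between tumors, PyMT BrM was 1.62 above EO771 BrM (SE 0.45, adjusted p = 0.0544). Of the 6 measured members 2 were positive in that comparison. Abcg1 (-0.96, adjusted p = 0.417) and Nr1h3 (-1.22, adjusted p = 0.436) were among those lower in PyMT BrM. None of these differences reached the threshold.

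The second Sqle probe was also highest in PyMT BrM, with a larger PyMT difference. PyMT BrM read 6.83, 7.31, 7.12 and 5.81, while the PyMT spleens read 4.29, 5.83 and 3.90 and the PyMT bone marrow 4.93. PyMT BrM 4 lay level with PyMT spleen 2. The difference of 2.03 (4.09-fold, SE 0.40, adjusted p = 0.00549) passed the threshold. It did not pass without PyMT BrM 1, 2 or 3, PyMT spleen 1 or 3 or PyMT bone marrow, each left out alone, and over all 14 such fits the adjusted p ran from 0.00145 to 0.0213. In EO771 BrM this probe read 5.27 and 4.78, against 4.14 to 4.88 in naïve tissue, a difference of 0.38. Over both models BrM was 1.30 above spleen on this probe (SE 0.38, adjusted p = 0.042). Against bone marrow it was 1.04 higher (SE 0.45, adjusted p = 0.173). The third probe was dim, from 1.98 to 3.75, with its mean at the 16.9 percentile of all probes, and could show little of a change (difference -0.04). Within mice the brightest probe was higher in tumor than in spleen by 1.37, 1.87 and 1.33. In the mouse that also gave bone marrow it was 0.58 higher in tumor than in marrow.

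On the brightest Insig1 probe 3 of the 4 PyMT BrM arrays stood apart. PyMT BrM read 6.59, 6.69, 6.52 and 5.43, EO771 BrM 5.76 and 5.49, and the other arrays 5.05 to 5.80. PyMT BrM 4 lay with the controls and the other 3 PyMT BrM arrays lay above every other array. The difference was 0.79 in PyMT (SE 0.26, adjusted p = 0.0682) and 0.40 in EO771 (SE 0.32, adjusted p = 0.631). Without PyMT BrM 4 the PyMT difference was 1.08 (adjusted p = 0.0054). Within mice it was 0.73, 1.27 and 0.16, the last in the mouse of PyMT BrM 4.

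The third Insig1 probe was the other member probe that passed. PyMT BrM read 6.17, 5.77, 5.43 and 4.67 and EO771 BrM read 4.65 and 5.11, against 2.75 to 4.57 in spleen and bone marrow. No array of the groups overlapped, though PyMT BrM 4 and EO771 BrM 1 cleared the highest control array by about 0.1. Over all arrays the difference was 1.51 (2.85-fold, SE 0.32, adjusted p = 0.00462), and it did not pass without PyMT BrM 1, 2 or 3 or naïve bone marrow 2, with adjusted p from 0.00341 to 0.0144 over the 14 fits that left out 1 array. The second and the fourth probes differed by -0.01 and 0.18. The second was higher in naïve spleen (6.30 and 6.55) and naïve bone marrow (6.10 and 6.33) than in PyMT BrM (4.54 to 6.08). Its condition means were 4.79 to 5.36 in PyMT BrM, spleen and bone marrow, and 6.15 to 6.43 in EO771 BrM and the naïve tissues. The probes of Insig1 thus differ in which conditions are high.

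**Figure D2:**
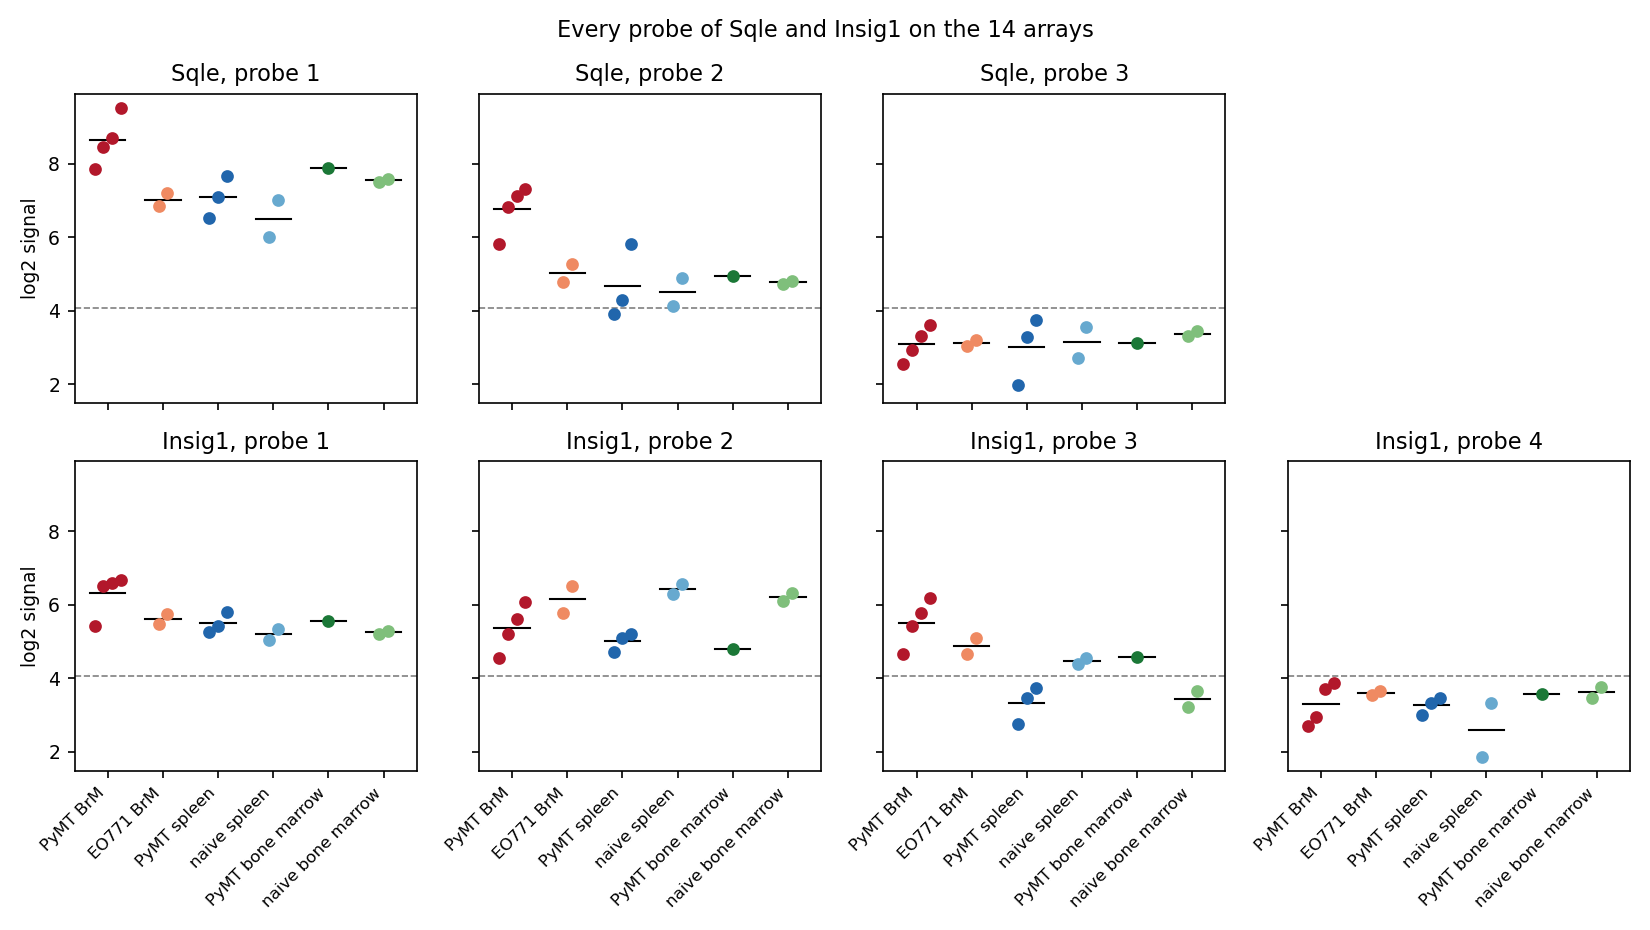
Log2 expression of each of the 3 Sqle and 4 Insig1 probes on every array, brightest probe first, by condition. PyMT BrM has the highest mean on the 2 brighter Sqle probes, and the Insig1 probes differ in which conditions are high.

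Over the 6 measured members, only Ch25h was called, in the pooled, PyMT and EO771 comparisons and against spleen and against bone marrow. The background is that 4.89% of all genes were called higher and 4.13% lower in the pooled comparison, 3.77% and 2.42% in PyMT, and 2.59% and 1.68% in EO771. Against spleen these shares were 4.61% and 3.89%, and against bone marrow 5.46% and 5.19%. No member was called in the difference between models, where 0.168% of genes were, or between spleen and bone marrow, where 0.00525% (1 gene) were. At an unadjusted p under 0.05 in limma these hold 0 and 2 members. Between PyMT and EO771 BrM 1.94% of genes were called and between PyMT and naïve spleen 0.0787%, with no member among them (1 and 0 at an unadjusted p under 0.05). In the pooled comparison the values were -0.16 for Abca1 (SE 0.19, adjusted p = 0.709), -0.37 for Abcg1 (SE 0.41, adjusted p = 0.682), -0.58 for Nr1h3 (SE 0.64, adjusted p = 0.676), 0.94 for Sqle (SE 0.40, adjusted p = 0.155) and 0.71 for Insig1 (SE 0.23, adjusted p = 0.0538). With the arrays centred on 10 reference genes instead, which moved the median of all probes by -0.17, the share of pooled calls that were higher went from 54.9% to 35.1% of probes, and Ch25h was 4.96 higher. Without that centring, the pooled median over the members was 0.27, with 3 of the 6 positive, against -0.01 over all genes.

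**Figure D3:**
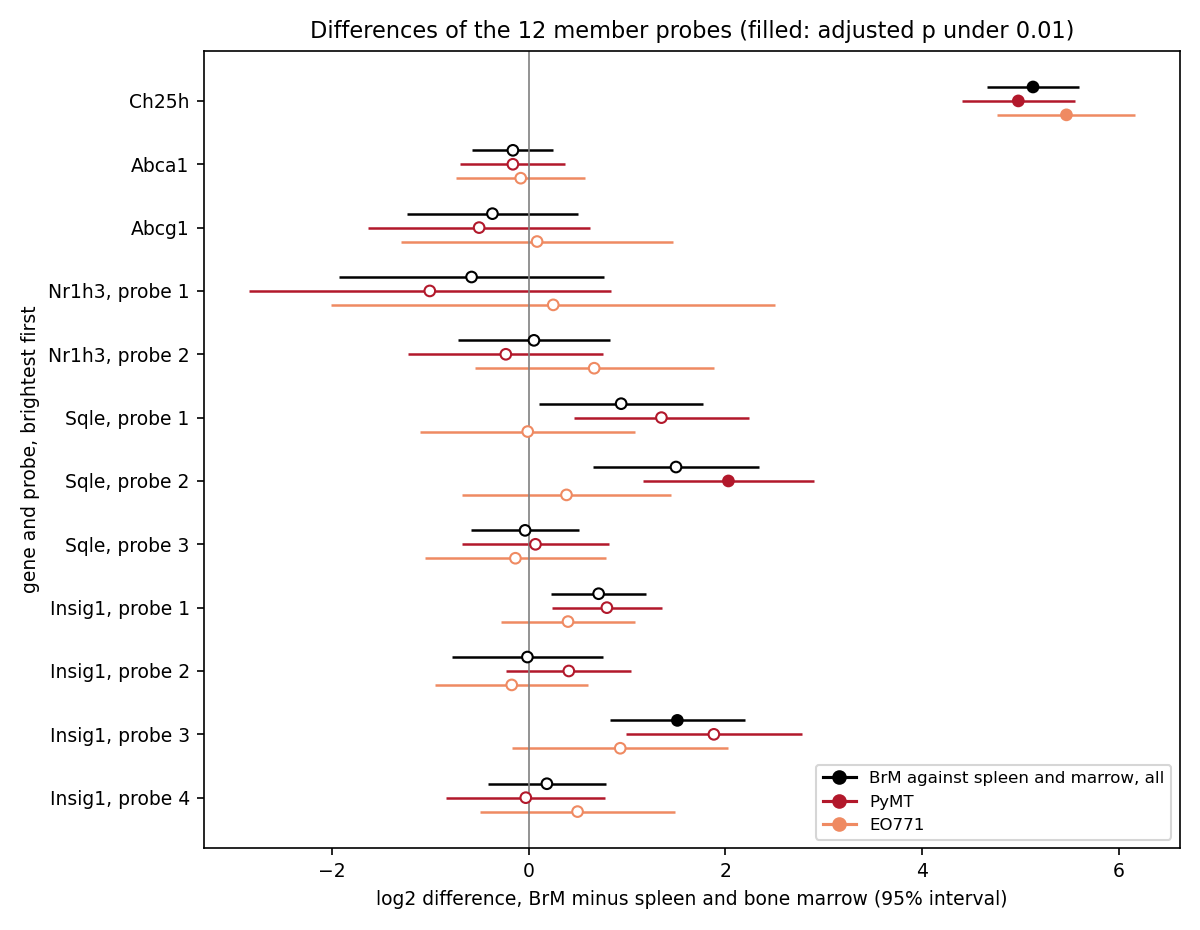
Log2 difference between BrM and spleen with bone marrow for each of the 12 member probes, pooled and in each model (bars are 95% intervals and filled points have an adjusted p under 0.01). Ch25h lies near 5 in all 3 comparisons, and the others lie within about 2 of 0.

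The other genes of cholesterol synthesis gave few calls, all of them higher in PyMT BrM or in BrM overall. The list held 20 enzymes, of which 15 had a probe, Sqle among them. In PyMT 2 of the 15 were called higher and none lower, where 3.77% and 2.42% of all genes were. The median difference was 0.80 against -0.01 for all genes. Pmvk, the kinase after mevalonate kinase, was 1.72 higher (SE 0.22, adjusted p = 2.76e-04), with PyMT BrM between 7.48 and 8.58 and PyMT spleen between 6.18 and 6.44. Lss, the cyclase that makes lanosterol, was 1.53 higher (SE 0.31, adjusted p = 0.00562). Its call was lost in 5 of the 14 fits that left out 1 array, those without PyMT BrM 1 or 2 or any PyMT spleen, with an adjusted p of up to 0.0211. In EO771 limma called none of the 15 (2 at an unadjusted p under 0.05), and the median was -0.07. Split by tissue over both models, the median was 0.62 against spleen, with 12 of the 15 positive. Against bone marrow it was -0.003, with 7 of the 15 positive. In neither of these did limma call any of the 15 (7 and 5 at an unadjusted p under 0.05).

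**Figure D4:**
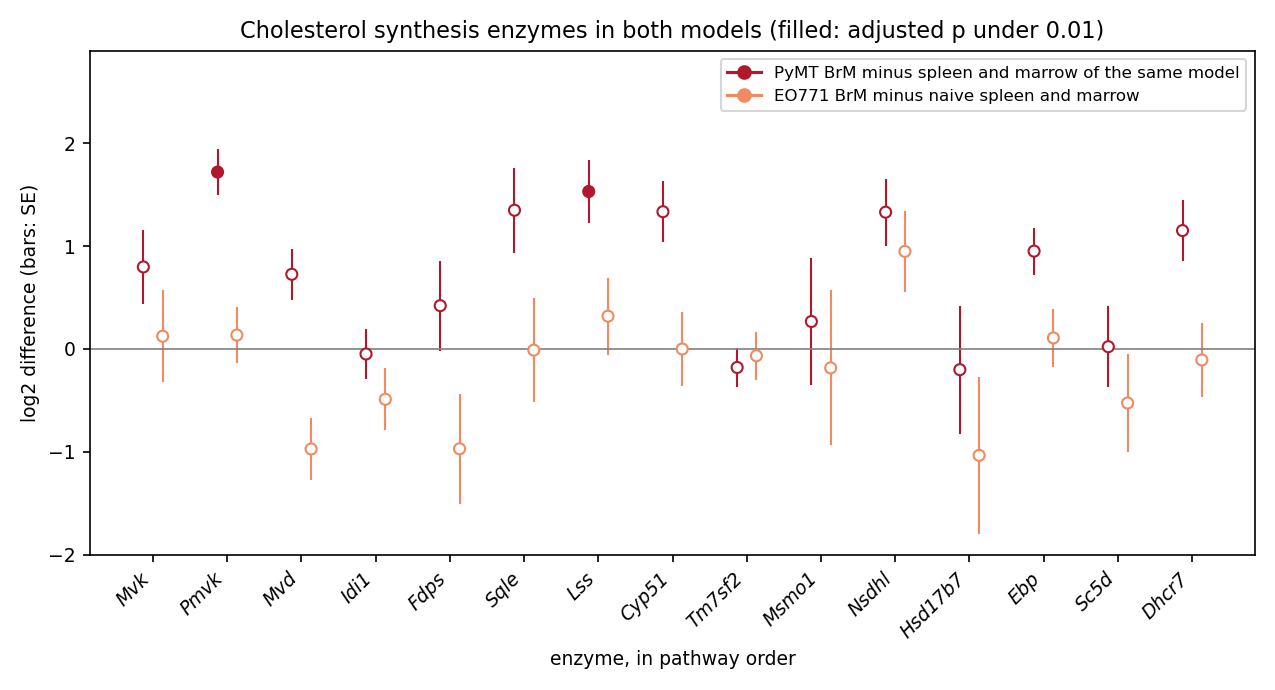
Log2 difference between BrM and its controls (± SE) for 15 cholesterol synthesis enzymes in PyMT and in EO771, in pathway order. PyMT values are above 0 for 12 enzymes and EO771 values for 5.

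Between the tumors 2 of the 15 enzymes were called higher in PyMT BrM and none lower. Of all genes, 1.94% were called there in either direction. The median difference was 1.17, against 0.06 for all genes, and 14 of the 15 were positive. Mvd, the decarboxylase late in the mevalonate branch, was 2.18 higher (SE 0.28, adjusted p = 0.00197), reading 7.44 to 8.45 in PyMT BrM and 5.79 to 5.88 in EO771 BrM. Its EO771 values were also below those of naïve spleen and bone marrow, at 6.53 to 7.03. Pmvk was 1.62 higher (SE 0.29, adjusted p = 0.00857). Mvd lost its call without either EO771 BrM array (adjusted p up to 0.0352), and Pmvk kept its call in the fits without PyMT BrM 3, PyMT spleen 2 or PyMT bone marrow but in no other (adjusted p up to 0.0825). The mean of the list was 6.78 to 7.29 in PyMT BrM, 6.01 and 6.09 in EO771 BrM, 5.74 to 6.63 in PyMT spleen, 6.64 in PyMT bone marrow, 5.84 and 6.10 in naïve spleen and 6.46 and 6.51 in naïve bone marrow. In the test of the difference between the models limma called none of the 15 (6 at an unadjusted p under 0.05), with a median of 0.84 against 0.03 for all genes. Pooled over models only Nsdhl, a sterol dehydrogenase, was called, at 1.26 (SE 0.27, adjusted p = 0.00512). That call was lost without any 1 of the 4 PyMT BrM arrays, naïve bone marrow 1 or naïve spleen 2, with an adjusted p of up to 0.016.

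Of 14636 genes ranked, the 3 most like Sqle were Ap2s1 (r = 0.928), Cyp51 (r = 0.926) and Ssr1 (r = 0.886), and Cyp51, a lanosterol demethylase, is on the synthesis list. Cyp51 was 0.91 higher in BrM overall (adjusted p = 0.0761), from 6.64 to 8.26 in PyMT BrM and 5.94 and 6.18 in EO771 BrM. Sqle and Insig1 varied together (r = 0.83), while Ch25h was less like either (r = 0.48 and 0.67), each r over 14 arrays.

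SREBP regulators were measured for 8 genes, Insig1 among them, and limma called none in the pooled comparison (5 at an unadjusted p under 0.05), with a median of 0.33. Srebf2, which encodes SREBP2, was lower in EO771 BrM than in naïve tissue by 1.68 log2 units (difference -1.68, SE 0.31, adjusted p = 0.00384), and the call was lost without either EO771 BrM array or either naïve bone marrow array, with an adjusted p of up to 0.0718. It was also lower in BrM than in bone marrow (-1.47, adjusted p = 0.00317), a call lost without the same 4 arrays, each left out alone (adjusted p up to 0.0154). Against spleen it was called lower too. Over the 14 fits that left out 1 array that difference ran from -1.31 to -1.10, and 10 kept the call. Its level was 7.69 to 8.98 in PyMT BrM, 6.86 and 7.07 in EO771 BrM and 8.53 to 9.46 elsewhere. Of 10 enzymes of fatty acid synthesis and desaturation, 2 rose and 1 fell in the pooled comparison, where 4.89% and 4.13% of all genes did. Fads1, a desaturase, rose by 2.32 (SE 0.47, adjusted p = 0.00291) and Acss2, which makes acetyl-CoA from acetate, fell by 1.55 (SE 0.16, adjusted p = 1.03e-05). The third, Elovl6, differed by 0.94 (adjusted p = 0.00757), but by -0.02 with its probes averaged, and of the 14 fits that left out 1 array it was called only in those without PyMT BrM 1 or 4, PyMT spleen 1 or naïve spleen 1 (adjusted p up to 0.0213).

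The oxysterol genes other than Ch25h showed 1 more call in the pooled comparison, where 4.89% of all genes were called higher and 4.13% lower. Hsd3b7, a dehydrogenase of bile acid synthesis that also degrades the ligand of Gpr183, was 1.76 higher in BrM (3.40-fold, SE 0.21, adjusted p = 3.14e-05). It read 11.31 to 11.61 in PyMT BrM, 10.49 and 10.50 in EO771 BrM and 8.95 to 9.60 in the other arrays, with no overlap. Of all genes, 4.25% lay higher in BrM without overlap. Gpr183, a receptor for oxysterols derived from the product of Ch25h, differed by 1.64 (SE 0.44, adjusted p = 0.0211) and was not called. It was called against bone marrow (2.78, SE 0.43, adjusted p = 0.00112), where 5.46% of all genes were called higher. The median over the 8 genes of the list was 0.60, Ch25h included.

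LXR targets split. Of 11 measured, Abca1 and Abcg1 among them, 3 were called higher and 1 lower, where 4.89% and 4.13% of all genes were. The median was 0.02 against -0.01 for all genes. Apoe, the apolipoprotein that takes up cholesterol leaving macrophages, rose by 2.82 (SE 0.36, adjusted p = 5.68e-05), from 10.14 to 12.35 in spleen and marrow to 13.46 to 13.99 in BrM. Apoc2 rose by 2.31 (SE 0.23, adjusted p = 5.32e-06) and Pltp, a phospholipid transfer protein, by 2.04 (SE 0.29, adjusted p = 1.86e-04). Abca7, a transporter of the same family as Abca1, fell by 1.24 (SE 0.19, adjusted p = 2.92e-04). These 4 calls are from the pooled comparison, and there they held in all 14 fits that left out 1 array. In PyMT the same 4 were called, but Pltp kept its call in only 9 of those 14 fits. In EO771 only Apoc2 was called, and it kept that call in 12 of the 14 fits. Apoe is also counted among the macrophage markers. Of the 4 LXR and RXR receptor genes, Nr1h3 among them, limma called none (2 at an unadjusted p under 0.05), at a median of -0.41.

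Among 14 genes of sterol efflux and intracellular transport, 2 were called higher and 1 lower (4.89% and 4.13% of all genes), at a median of -0.25. They were Apoe, Abca7 and Npc1, which exports cholesterol from lysosomes (1.10, SE 0.24, adjusted p = 0.0061), and of the 14 fits that left out 1 array the last was called only in those without PyMT spleen 1 or 3 or either naïve spleen (adjusted p up to 0.0173). Npc2, the partner of Npc1, differed by 1.59 in PyMT and 2.81 in EO771 (adjusted p = 4.61e-04 and 3.26e-05). It was 8.28 to 9.31 in PyMT BrM and 11.27 and 11.65 in EO771 BrM, and the controls differed as well, at 7.06 to 7.24 in PyMT spleen and 8.81 and 8.82 in naïve spleen. Of 8 lipoprotein uptake receptors only Msr1, the class A scavenger receptor, was called, at 3.80 higher (13.9-fold, SE 0.27, adjusted p = 1.42e-07), with PyMT BrM at 8.03 to 8.46, EO771 BrM at 9.47 and 9.70 and all others at 4.40 to 5.51. The median of that list was -0.30. Of 5 genes of cholesterol ester storage limma called none (4 at an unadjusted p under 0.05), at a median of 0.05.

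Cell type markers differed as well in the pooled comparison, where 4.89% of all genes were called higher and 4.13% lower. Macrophage markers, 8 of 15 higher and none lower, averaged 10.97 to 11.26 in BrM and 8.49 to 10.004 in the other arrays, and neutrophil markers, 13 of 15 lower, averaged 6.996 to 9.18 in BrM and 11.36 to 12.71 elsewhere. The brightest called were C1qb for the first and S100a8 for the second (11.86 to 13.44 in BrM, 13.83 to 14.19 elsewhere). Microglia markers were higher for 4 of 9 genes, with list means of 7.36 to 9.08 in BrM and 5.46 to 6.29 elsewhere. Fcrls, a marker of microglia, read 10.76 to 13.87 in BrM and 2.30 to 4.17 elsewhere. Among the other lists, 3 of 8 monocyte, 3 of 12 endothelial and fibroblast and 1 of 11 brain cell markers were higher in BrM. Lower there were 4 of 8 erythroid, 3 of 7 B cell, 2 of 9 T and NK cell and 1 of 11 brain cell markers, and limma called none of 10 dendritic cell markers (3 at an unadjusted p under 0.05). Their part in the differences of Ch25h, Msr1, Apoe or Hsd3b7 was not tested.

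**Figure D5:**
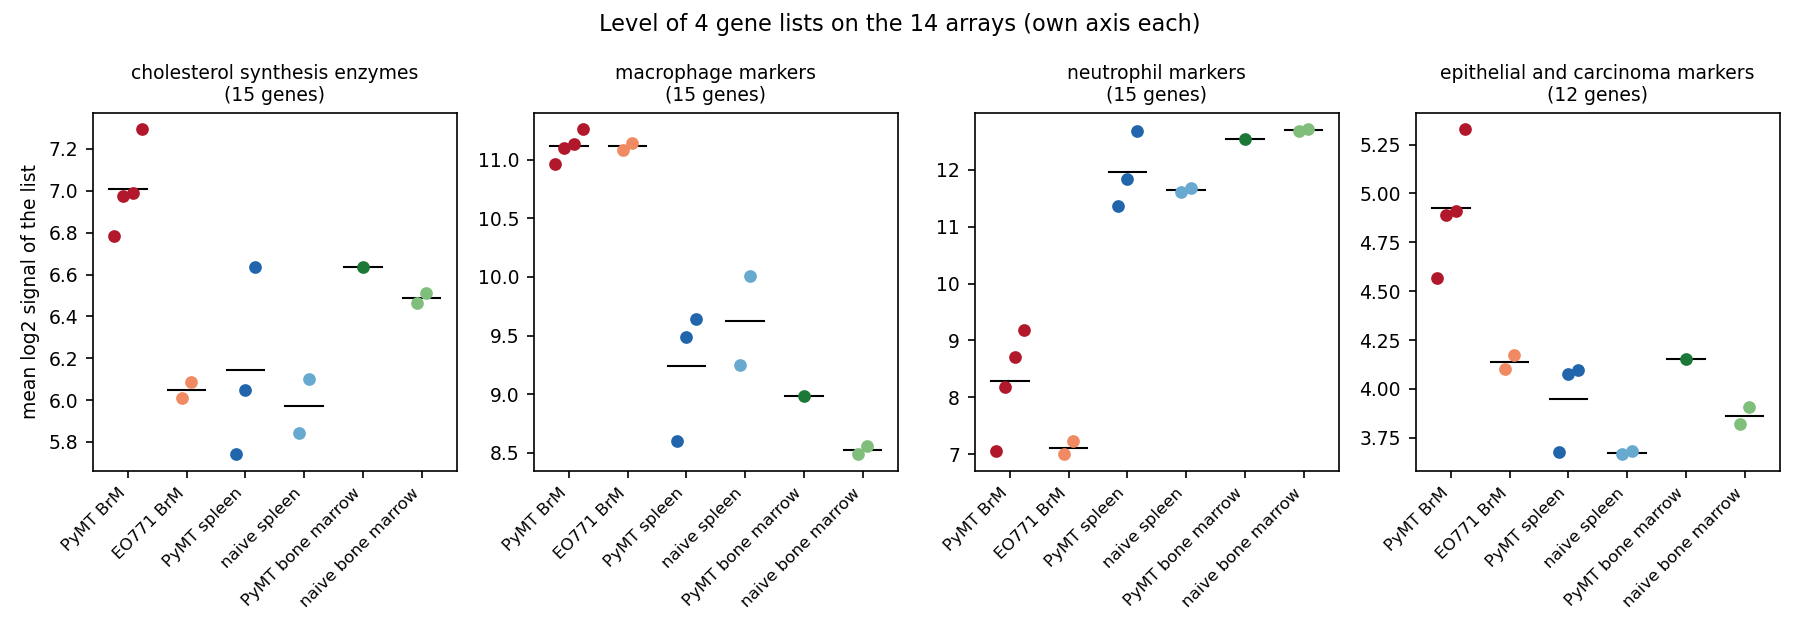
Mean log2 expression over the genes of 4 lists on each array, by condition, each list on its own axis. The cholesterol synthesis list is highest in PyMT BrM (6.78 to 7.29).

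Several marker lists differed between the tumors, as the synthesis enzymes did, where 1.94% of all genes were called in either direction. Monocyte markers were called lower in PyMT BrM than in EO771 BrM for 3 of 8 genes, with list means of 8.82 to 9.50 against 10.29 and 10.34, and microglia markers were called higher for 1 of 9, with 8.89 to 9.08 against 7.36 and 8.07. Of the 15 neutrophil markers limma called none there (9 at an unadjusted p under 0.05), with list means of 7.05 to 9.18 against 6.996 and 7.23. Epithelial and carcinoma markers differed as well. The mean of that list was 4.57 to 5.33 in PyMT BrM, 4.10 and 4.17 in EO771 BrM and 3.66 to 4.15 in spleen and bone marrow, and 3 of 12 were higher in PyMT BrM than in EO771 BrM. Krt8 was called in the pooled comparison at 3.10 higher (adjusted p = 1.12e-05), and Cdh1 at 1.46 (adjusted p = 0.00401). Epcam read 2.53 to 3.12 in BrM and 2.41 to 3.36 elsewhere. All its values lay below the median of all values, 4.06, so its probe held little signal in any group. The part of these markers in the difference of Sqle, Pmvk and Mvd between the tumors was not tested.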

How the data were processed

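RNA of sorted GFP+CD11b+ cells was hybridized to Illumina MouseWG-6 v2 arrays. Per the labels, the authors used GenomeStudio 2011.1 and limma, and the deposited values are log2 intensities that had been quantile normalized. The background correction is not given in the sources used here, no detection p-values were used, and the log base was read from the range (-1.68 to 14.58). Probes were named from the platform annotation, which gave 1 symbol to 34885 probes, several to 18 and none to 10378. The 14 arrays were grouped by their labels. Differences were fitted with limma 3.58.1 in R 4.3.3 (lmFit and eBayes) over all 45281 probes, with Benjamini-Hochberg adjustment and a threshold of 0.01. The pooled comparison sets 6 BrM arrays against 8 spleen and bone marrow arrays. The PyMT and EO771 comparisons and the difference between the models used a fit of 4 groups over all 14 arrays. There spleen and bone marrow were merged into the controls of each model. The other comparisons used a fit of the 6 conditions. The comparisons share control arrays. A gene was read from its brightest probe. In the 23 gene lists, genes named are the 3 largest called rises and falls of a list, genes needed to explain a count, up to 2 bright called markers, and the 5 genes most like Ch25h or 3 most like Sqle. Members and lists were chosen with earlier results of these data known. Mouse codes tie 3 BrM arrays to a spleen of 1 animal. The correlation of their deviations from the group means was -0.0332, -0.03 and -0.00724 over 29524 probes. The fitting was tested on simulated data. Alternatives were other normalizations, probe rules, filters, blocks and leaving out each array. p-values measure the spread between these arrays; precision is limited by how many arrays there are.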

Additional observations from a re-analysis of the deposited data

Results flagged for a closer look

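Of 60 groups of values examined for a single far-off array, over the 12 member probes, 2 held one, where chance gives about 1 in 20 groups. The brightest Insig1 probe read 5.43 in PyMT BrM 4, against 6.52 in the nearest of the other PyMT BrM arrays. The dimmest Insig1 probe read 1.87 in naïve spleen 1, against 3.01 in the nearest spleen or bone marrow array.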

How the results depend on the processing

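Ch25h was called in the pooled, PyMT and EO771 comparisons under each alternative that was fitted to them. Some alternatives were fitted to the pooled comparison only. The pooled difference of Ch25h ran from 4.85 to 5.27 over the alternatives, and from 5.02 to 5.28 when 1 array was left out. The number of members called was 1 in the pooled comparison under every alternative, and in the PyMT comparison it was 2 with all probes of a gene averaged (Sqle, 1.15, adjusted p = 0.0051). Leaving out 1 array gave 1 to 2 members in PyMT, 1 to 2 against spleen and 0 to 1 between spleen and bone marrow. The extra calls were Insig1 without PyMT BrM 4 and Nr1h3 without PyMT spleen 2.

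Title numbers do not follow the mouse codes, and the paired deviations were not correlated. With a replicate block by title number, 2 members were called in PyMT (the other being Insig1, 1.12, adjusted p = 0.00877), and the pooled difference of Ch25h was 5.27 (adjusted p = 2.79e-08). With mouse as a random block it was 5.12, and within the 3 mice with a tumor and a spleen it was 4.85 (SE 0.32, adjusted p = 0.00249). Over all probes the pooled calls were 1719 higher and 1413 lower. They were 1077 and 921 with the block by title number, 69 and 44 within the 3 mice, 1043 and 1927 with centred arrays and 1018 and 909 with probes averaged. The methods' t-test gave 10295 probes at p under 0.05, 2 member genes among them, and 5256 after Benjamini-Hochberg adjustment, 1 member gene among them.

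The differences that changed sign were not called, apart from those of Elovl6 (0.94) and Osbpl8 in PyMT (-1.10). In EO771, Abcg1 was -0.060 with centred arrays and -0.049 with the naïve bone marrow arrays averaged, Nr1h3 was -0.28 with those averaged, and Sqle was 0.078 with probes averaged and 0.16 with those arrays averaged. With probes averaged Elovl6 was -0.023 and Osbpl8, called lower in PyMT by the brightest probe, was 0.032. Leaving out 1 array, Abca1 ran from -0.32 to 0.064 in PyMT and from -0.24 to 0.15 between the models, and in EO771 Abcg1 ran from -0.14 to 0.35, Nr1h3 from -0.30 to 0.81 and Sqle from -0.35 to 0.18. The synthesis enzymes called higher in PyMT numbered 1 to 5, most with dim probes left out. The cause was not tested. Dim probes, Abca1 among them, limit what a fall could show.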
